A study of Mus musculus with 6 samples.

Results

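Gene expression in whole optic nerve of CD1 wild-type mice was compared between postnatal day 35 (P35, adult per the labels) and postnatal day 14 (P14). The comparison rests on 2 of the 6 arrays of the series, the P35 and the P14 wild-type array, and runs over all 24606 probes of the chip. The P35 array was hybridised with RNA of 4 pooled nerves and the P14 array with RNA of 8 pooled nerves. The other arrays hold LIF-/- nerves on the CD1 background at P35, P14 and P10 and CD1 wild-type nerves at P10, the P10 pools being of 10 nerves. LIF, leukemia inhibitory factor, is a secreted cytokine related to interleukin-6. All mice were labelled male, and no nerve was treated after dissection.

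The optic nerve carries the axons of retinal ganglion cells to the brain and contains no neuronal cell bodies. Its oligodendrocytes arise from migrating precursors, pass through a short newly formed stage and then wrap the axons in myelin, a lipid-rich membrane that speeds conduction between the nodes of Ranvier. Astrocytes, microglia, vessels and a meningeal sheath make up the rest of the tissue, and in the mouse most of the myelin is laid down in the weeks after birth.

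With 1 pooled array at each age there was no replicate and no test, and every value below describes these 2 pools. The P35 arrays lay on another slide than the P14 and P10 arrays, so that age and slide cannot be told apart in any P35 minus P14 difference. In RNA of bulk tissue, fewer cells of a type and less RNA per cell also cannot be told apart. Median probe signals were 54.5 on the P35 array and 61.8 on the P14 array, and 12756 and 12222 probes were detected. The signal of an 18S ribosomal RNA control was 1655 at P35 and 3670 at P14 in wild type, and 1576 and 3061 in the knockout, so that this control was lower on both arrays of the second slide. The Lif probe was near background on every array, at 56.0 to 88.2 signal units in the knockout and 57.0 to 76.6 in wild type. It checks neither genotype, since the position of the probe relative to the deletion is not known here.

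The markers of the labelled tissue were present. Of the mature oligodendrocyte markers 6 of 7 were measured, and their summed signal was 53228 at P35 and 66522 at P14. The 4 measured astrocyte markers summed to 22549 and 13801 at these ages, and those of microglia to 1759 and 1135. Stmn2, the only measured gene of a panel of 4 neuron and axon markers, stood at 72.5 and 83.2. None of the 3 Schwann cell markers of the panel was measured, while 4 genes of a wider Schwann cell list were detected at both ages, with a median difference of −0.08. Markers of neighbouring tissue were uneven between the pools: 4 skeletal muscle markers summed to 243 at P35 and 953 at P14, and the pituitary markers Cga and Chga, below the detection limit at P35, summed to 99.7 and 886. The fat markers Adipoq and Ucp1 were detected at P14 only. Hba-a1 and Alas2, markers of red cells, summed to 9679 at P35 and 5324 at P14.

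The arrays were not uniform for genes of the Y chromosome, although all pools were labelled male. Eif2s3y had 72.3 signal units at P35 and 702 at P14 in wild type, and 39.5 and 524 in the knockout, with 55.4 at P10 in wild type and 396 at P10 in the knockout. The probe was not detected on the P10 wild-type array or the P35 knockout array. Kdm5d, another gene of the Y chromosome, had 141 at P35 and 168 at P14 in wild type and was below the detection limit on the P35 knockout array at 37.5. The P35 and P14 wild-type pools thus differed for Eif2s3y and hardly for Kdm5d. The part of this in other differences was not tested.

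Of the 24606 probes, 11446 were detected on both wild-type arrays, with a detection p-value below 0.05. Signals were corrected for background, quantile normalized and taken to log2, and a difference of at least 1 log2 unit, or 2-fold, was counted. On this rule 582 probes were higher at P35 than at P14 (5.08%) and 525 were lower (4.59%). Without normalization between the arrays the counts were 361 higher and 812 lower, with a median over all probes of −0.20 in place of −0.03. The standard deviation of the differences over probes was 0.62, against 0.41 for P14 minus P10 in wild type, a pair of arrays on 1 slide. It was 0.31 for knockout minus wild type at P14, also on 1 slide. A further 1310 probes (5.32% of all) were detected on the P35 array only and 776 (3.15%) on the P14 array only.

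Gene names could be given to 6656 genes, of which 6127 were detected on both arrays, 246 at P35 only (3.70%), 170 at P14 only (2.55%) and 113 on neither. Among the 6127, 328 genes were higher by at least 2-fold at P35 (5.35%) and 342 were lower (5.58%), and the median difference was −0.04. These shares are the background against which the counts of the gene groups below stand. Naming was uneven between the ages: 529 probes were linked to the name table through values on the P35 arrays alone, and 3 through the younger arrays alone. Named genes detected at P35 only, and their bounds, are therefore not on an equal footing with those detected at P14 only. Differences reached 2 log2 units for 30 higher and 19 lower genes.

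**Figure D1:**
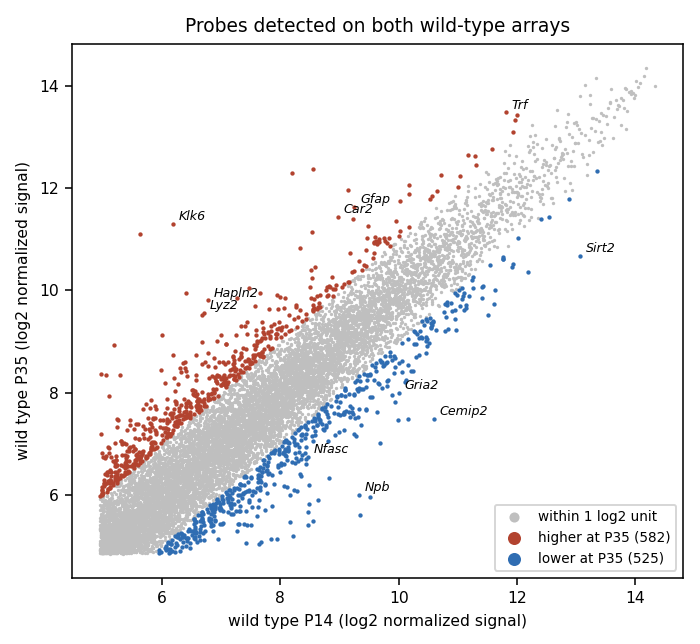
Normalized log2 signal of the 11446 probes detected on both wild-type arrays, with the P35 array on the vertical axis and the P14 array on the horizontal axis. Points past 1 log2 unit are coloured, 582 above and 525 below the band, and named genes mark a few of the farthest. Of the labelled genes, Klk6 stands farthest above the band.

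The knockout pools of the same ages share no array with this comparison, but they lay on the same 2 slides. Of the 582 probes that were higher in wild type, 550 were also detected on both knockout arrays, and 486 of these (88.4%) had a knockout difference of the same sign. A knockout difference of at least 1 log2 unit was found for 290 of them (52.7%), where 7.06% of the 10899 probes detected on the 4 arrays passed this limit. Of the 525 lower probes, 507 were detected in the knockout and 455 (89.7%) had the same sign. Here 262 (51.7%) passed 1 log2 unit downward, against 6.20% of all. The median knockout difference was 1.07 for the higher probes and −1.02 for the lower ones. Slide and age coincide in both genotypes, so this agreement does not separate them. Where the 2 P35 pools and the 4 younger pools are said below not to overlap, deposited signals are meant. Over the 11446 probes, both P35 signals lay above all 4 younger ones for 14.6% and below them for 32.2%, and with normalized signals the shares were 23.6% and 27.5%. The genes so described were chosen by their P35 minus P14 difference, which goes far to fix such a separation, so it is a description and no support for the difference.

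Genes of the fully mature oligodendrocyte were among those with the highest P35 minus P14 differences. Klk6, a secreted serine protease that mature oligodendrocytes make, had 2431 signal units at P35 and 105 at P14 in wild type, and 110 at P10. The knockout pools had 1151 at P35 and 326 at P14. The wild-type difference was 5.11 log2 units, or 34.6-fold, the highest of all named genes detected on both arrays, and the knockout difference was 1.81. Both P35 pools lay above all 4 younger pools for this gene.

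Hapln2, which encodes a link protein that binds hyaluronan and proteoglycans at the node of Ranvier, had 859 signal units at P35 and 144 at P14, a difference of 3.03. The knockout difference was 3.10. Anln, the actin and septin scaffold protein anillin, had 3944 and 618 at these ages in wild type, with differences of 2.82 in wild type and 2.75 in the knockout. Anillin serves cytokinesis in dividing cells and is also a component of adult myelin. Car2, the carbonic anhydrase of oligodendrocytes, had 2697 and 549, with 2.46 in wild type and 2.99 in the knockout. For all 3 genes, as for Klk6, the P35 signals of both genotypes exceeded every signal of the younger pools.

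The list of late mature oligodendrocyte genes had 29 members with a named probe, all detected on both arrays. Their median difference was 0.62, against −0.04 for all named genes, and 24 of the 29 lay above 0. Of these members 9 were higher by at least 2-fold and 0 lower. Beside the 4 genes above these were Qdpr, Trf, Apod, Evi2a and Nkx6-2. Trf encodes transferrin, the iron carrier, and had 11707 signal units at P35 and 3753 at P14, a difference of 1.66. Qdpr, which regenerates tetrahydrobiopterin, had 4149 and 1240, a difference of 1.87. Apod, the lipid carrier apolipoprotein D, had 11161 and 4246, a difference of 1.43, and Nkx6-2, a homeobox transcription factor of oligodendrocytes, had 671 and 391, a difference of 1.01. The knockout median for the list was 0.79. Fth1, the heavy chain of the iron store ferritin, stood at 0.87 and did not reach the 2-fold limit.

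The structural proteins of myelin had a lower median. The 15 measured members had a median of −0.07, and 1 was higher by at least 2-fold, Gpm6b, a tetraspan membrane glycoprotein, with 1890 at P35 and 831 at P14. Mbp, myelin basic protein, had 20705 signal units at P35 and 20175 at P14 and a difference of 0.15. Mag, the myelin-associated glycoprotein facing the axon, had 15152 and 21105, a difference of −0.35. Mobp, Opalin and Cnp, which encode further proteins of the sheath, stood at −0.61, −0.57 and −0.56, while Mal, a raft protein of the sheath, stood at 0.78. Mog, which lies on the outer surface of myelin, had 5890 and 6781 and a difference of −0.18, beside a P14 minus P10 difference of 1.20 in wild type. Mbp had the highest signal of the P35 array and Mag that of the P14 array. Quantile normalization leaves little room for a difference at this end of the range, though the deposited Mbp signals were also close. The knockout median of the group was 0.15.

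**Figure D2:**
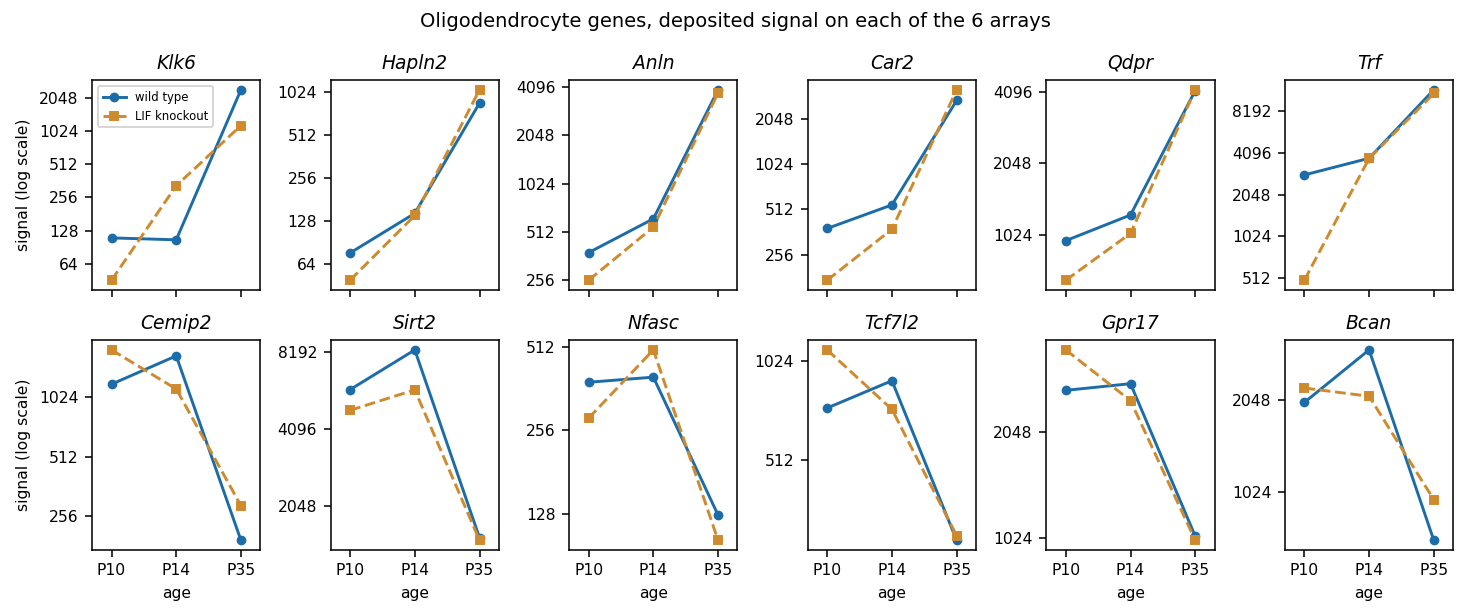
Deposited signal on a log scale by age for 12 oligodendrocyte genes on the 6 arrays, with circles and solid lines for wild type and squares and dashed lines for the LIF knockout, 1 pool per point. The upper row shows genes that were higher at P35, such as Hapln2 with 859 at P35 and 144 at P14 in wild type. The lower row shows genes that were lower, such as Sirt2 with 1541 and 8355.

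Most genes of the newly formed oligodendrocyte list were lower at P35. All 23 measured genes of this list were detected on both arrays, with a median of −0.94. Below 0 lay 21 of the 23, and 11 were lower by at least 2-fold. The exception past the limit was Cd59a, a membrane inhibitor of the terminal complement complex, which was higher by 2.60 in wild type and 1.53 in the knockout. In the knockout the median of the list was −1.05.

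Cemip2, a hyaluronan-degrading protein of the cell surface, had 193 signal units at P35 and 1654 at P14, a difference of −3.11, and its second probe differed by −3.54. The knockout difference was −2.14. Sirt2, a deacetylase of tubulin and other proteins that is abundant in oligodendrocytes, had 1541 and 8355 in wild type and 1506 and 5832 in the knockout, with differences of −2.39 and −2.10. Cnksr3, a scaffold protein of kinase signalling, stood at −2.03 and −1.99. For each of these genes both P35 pools lay below all 4 younger pools.

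Nfasc, the adhesion molecule neurofascin of nodes and paranodes, had 126 signal units at P35 and 397 at P14, a difference of −1.71, with −2.79 in the knockout. Tcf7l2, a transcription factor of the Wnt pathway that marks newly formed oligodendrocytes, had 291 and 893, with −1.51 in wild type and −1.44 in the knockout. Gpr17, a G protein-coupled receptor that marks committed precursors, had 1039 and 2803, with −1.33 and −1.47. In all 3 the groups of P35 and younger pools did not overlap. Rras2, Mycl, Marcksl1, Dpysl3 and Neu4 were also lower by at least 2-fold, at −1.67, −1.64, −1.47, −1.04 and −1.02. Bcas1, a further gene of early myelinating cells, was at 0.33, with 14616 and 12195 signal units. Enpp6, which both oligodendrocyte lists held, was at −0.41. The 3 measured panel markers of this stage, Bcas1, Enpp6 and Gpr17, changed little in sum. They had 19389 signal units at P35 and 20356 at P14 in wild type, and 18417 and 17698 in the knockout, with Bcas1 the largest part in wild type.

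Of 20 measured genes of the oligodendrocyte precursor 19 were detected on both arrays, with a median of −0.35 and 15 of the 19 below 0. By at least 2-fold 3 were lower and 0 higher. Bcan, the proteoglycan brevican, had 710 signal units at P35 and 3005 at P14, a difference of −1.97 with −1.26 in the knockout, and its second probe stood at −2.67. Traf4, an adaptor of receptor signalling, was at −1.25, while Matn4, which encodes a matrilin, was at −1.07. The receptor Pdgfra, which takes the main mitogen of precursors, had 1090 and 1495 signal units and a difference of −0.29. Cspg4, the NG2 proteoglycan, was at −0.57, and the lineage factors Sox10 and Olig2 were at −0.10 and −0.22. The precursor group thus held some genes past 2-fold while its defining receptor was not among them.

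Myelin is rich in cholesterol, which oligodendrocytes make themselves. Of 23 measured genes 6 were lower by at least 2-fold and 1 was higher, with a median of −0.15. Those lower were Pcyt2, of phosphatidylethanolamine synthesis, at −1.42, and Mvk, Mvd, Stard4, Idi1 and Pmvk at −1.35, −1.29, −1.17, −1.13 and −1.03. Mvk, Pmvk, Mvd and Idi1 encode consecutive enzymes of the mevalonate pathway. Idi1 stood at 0.07 in the knockout, so the single pairs of pools differed for it, and a difference between the genotypes was not tested. Hmgcs1, the enzyme before the rate-limiting step, had 15437 signal units at P35 and 18087 at P14 and a difference of −0.04. Insig1, an endoplasmic reticulum protein that restrains the pathway, was higher by 1.40, with 1.96 in the knockout. Enzymes of other myelin lipids, 26 of 27 detected on both arrays, had a median of 0.15 and 1 gene past the limit, Elovl1, which elongates very long fatty acids, at −1.07.

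The node and paranode genes were divided. Of 18 measured genes 16 were detected on both arrays, 3 higher and 4 lower by at least 2-fold, with a median of −0.05. The median was 0.05 with median centring in place of quantile normalization, −0.35 with a detection limit of 0.01 and −0.37 over all 18 genes without a detection filter. Hapln2, described above, Cntn2 at 1.39 and Gldn at 1.22 were higher, Cntn2 being the contactin of the juxtaparanode and Gldn the gliomedin of peripheral nodes. Cntnap2, the Caspr2 partner of Cntn2, was lower by 1.88, with 95.4 signal units at P35 and 307 at P14, and Cntn1, the paranodal contactin, by 1.60. The other lower members were Bcan and Nfasc, described above with the precursor and newly formed oligodendrocyte lists. Bcan is also counted among the lower collagen and matrix genes below, so these counts share members. The knockout values were 1.66 for Cntn2 and −1.38 for Cntn1. For Cntnap2 the knockout difference was 0.61, and for Gldn, at background on the P35 knockout array, it was −2.06, both opposite in sign to wild type.

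**Figure D3:**
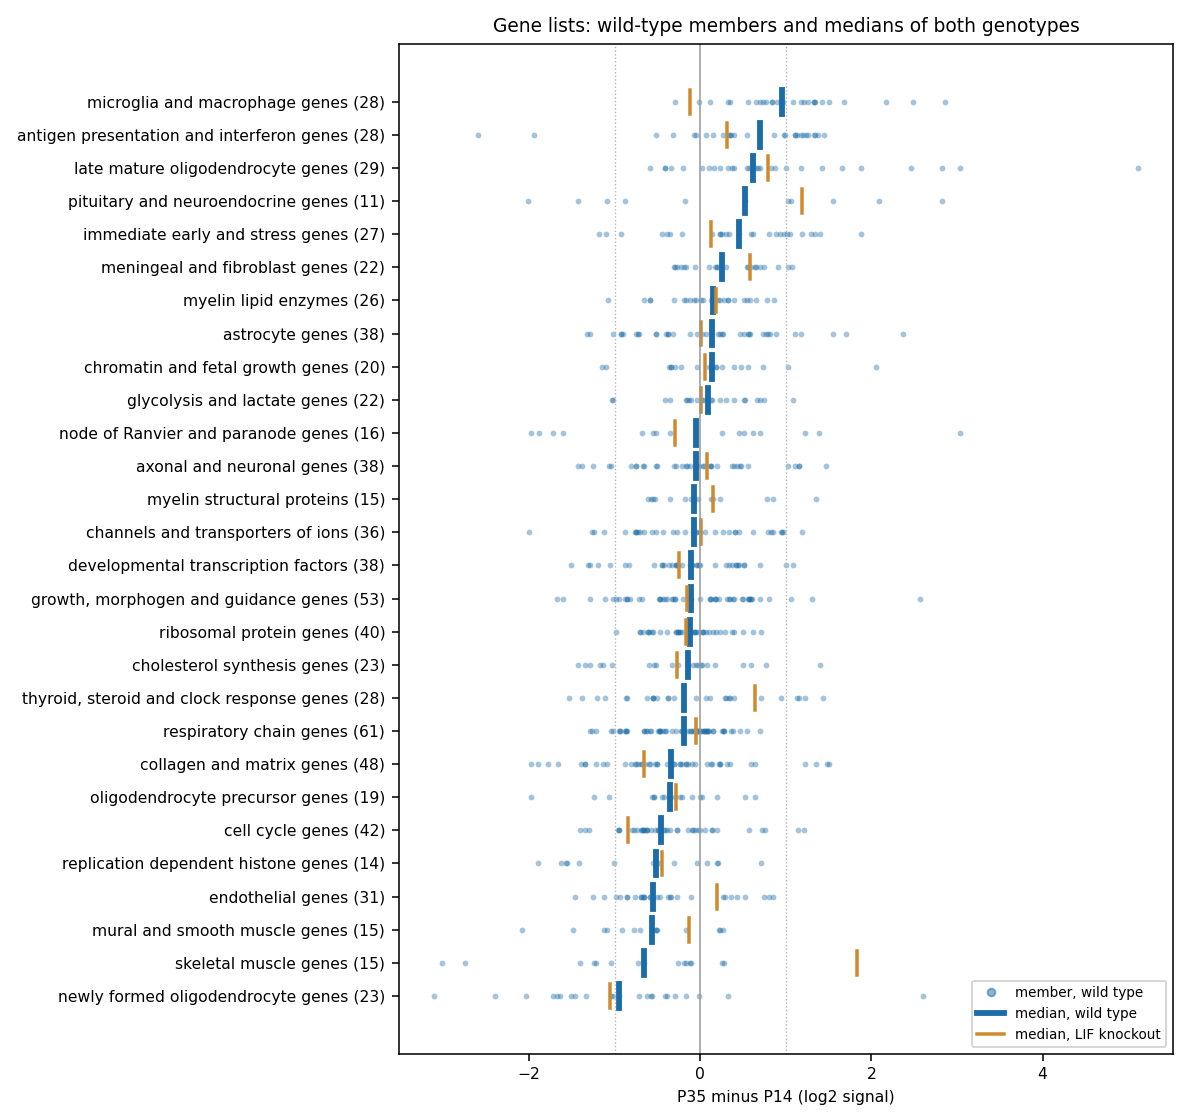
P35 minus P14 log2 difference of the members of the larger gene lists in wild type (points). The median of each list is shown in wild type (thick bar) and in the LIF knockout (thin bar). Members detected on both arrays are counted in brackets. Dotted lines mark 1 log2 unit either way. The microglia list has the highest wild-type median, 0.95, and the newly formed oligodendrocyte list the lowest, −0.94.

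Microglia and macrophage genes were higher in the P35 wild-type pool. Of 33 measured genes 28 were detected on both arrays, with a median of 0.95 and 26 of the 28 above 0. Higher by at least 2-fold were 13 and lower 0. A further 4 genes were detected at P35 only, among them Ptprc, the leukocyte tyrosine phosphatase CD45, which was at least 2.33-fold higher, or 1.72-fold without background correction.

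Lyz2, the lysozyme of macrophages, had 729 signal units at P35 and 140 at P14, a difference of 2.85. Gpnmb, a lysosomal glycoprotein of activated phagocytes, had 1725 and 366, a difference of 2.49 that its second probe gave as 2.45. Ctss, the protease cathepsin S, had 2599 and 648, a difference of 2.17. In the knockout these 3 genes differed by 2.20, 1.73 and 1.21, and both P35 pools lay above all younger pools for each. C1qc, C1qb and C1qa, the chains of complement C1q, were at 1.68, 1.21 and 0.65 in wild type. Their knockout differences were 0.18, 0.22 and −0.75.

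Some members of the list had opposite signs in the genotypes, and the difference between the genotypes was not tested. Cx3cr1, the fractalkine receptor, had 491 signal units at P35 and 355 at P14 in wild type, and 299 and 526 in the knockout, with differences of 0.70 and −0.97. Tyrobp, an adaptor of Trem2, had 368 and 233 in wild type and 291 and 367 in the knockout, with 0.95 and −0.44. Fcgr3, an Fc receptor, stood at 1.33 and −1.06, and Aif1, the calcium-binding protein Iba1, at 1.33 and −0.43. Others had the same sign, such as Gpr34, a receptor of microglia, at 1.51 and 0.93. P2ry12, their ADP receptor, was detected at P35 only in both genotypes, with 70.9 signal units at P35 and 55.9 at P14 in wild type and 67.6 and 41.9 in the knockout. The median of the list was −0.12 in the knockout.

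Relative to the P14 wild-type array, the median of the microglia list was 0.38 on the P10 array and 0.95 on the P35 array of wild type. The knockout medians relative to the same array were 0.15 at P10, 0.61 at P14 and 0.43 at P35. The P14 wild-type array thus had the lowest median of the 6 arrays for this list, and the P35 wild-type array the highest.

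Antigen presentation and interferon genes had a median of 0.70 over the 28 of 29 measured genes detected on both arrays, with 11 higher and 2 lower by at least 2-fold. B2m, the light chain of class I molecules, had 4794 signal units at P35 and 2220 at P14, a difference of 1.20. Ifit2, an interferon-induced inhibitor of translation, was at 1.45, Tap2, a subunit of the peptide transporter, at 1.38, and Cd74, the class II invariant chain, at 1.34. H2-Eb1, a class II chain, was detected at P35 and not at P14, and was at least 3.31-fold higher. In wild type it had 122 signal units at P35, 59.8 at P14 and 138 at P10, so that the P10 pool was not below the P35 pool. The 2 lower genes were H2-D1, a class I heavy chain, at −2.59, and H2-Ab1, a class II chain, at −1.94, whose second probe stood at −0.03. These histocompatibility genes have near-identical copies and many alleles, and CD1 is an outbred stock, so single probes for them are uncertain. H2-D1 had 57.2, 239 and 57.0 signal units at P35, P14 and P10 in wild type, so that the P10 pool was not above the P35 pool. In the knockout it had 719, 196 and 41.3, a P35 minus P14 difference of 1.96. The knockout median of the list was 0.31. Relative to the P14 wild-type array, the list median was 0.377 at P10 in wild type. In the knockout it was −0.174, 0.281 and 0.35 at P10, P14 and P35.

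**Figure D4:**
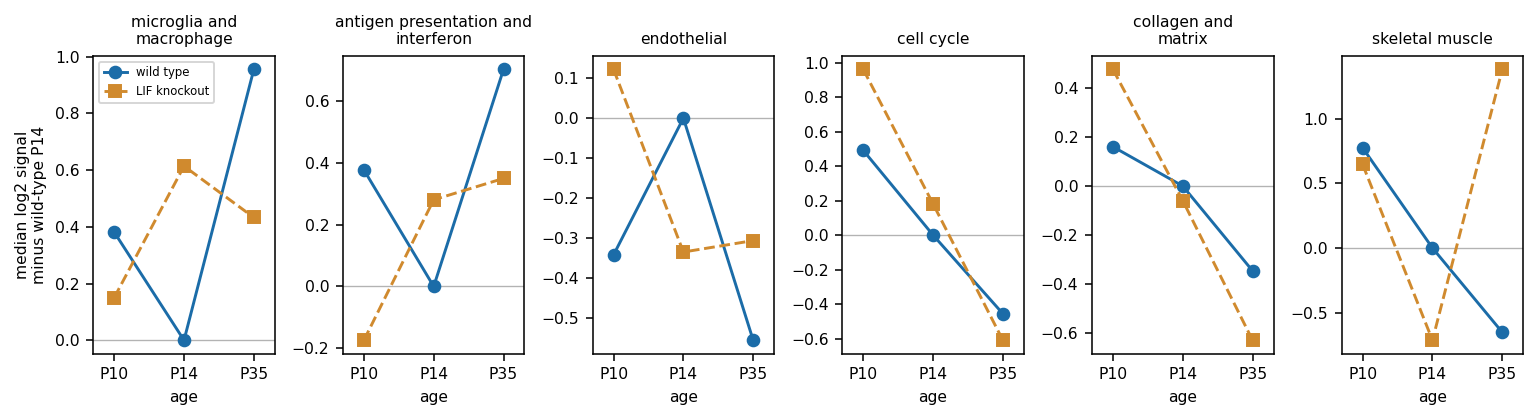
Median log2 signal of 6 gene lists on each array, relative to the P14 wild-type array, by age, with circles and solid lines for wild type and squares and dashed lines for the LIF knockout. Vertical scales differ between panels, and the P14 wild-type value is 0 by construction. The wild-type P35 median is 0.95 for microglia genes and −0.46 for cell cycle genes.

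Astrocyte genes went both ways. All 38 measured genes were detected on both arrays, with 5 higher and 3 lower by at least 2-fold and a median of 0.14, or −0.01 without normalization between the arrays. Gfap, the intermediate filament of astrocytes, had 3106 signal units at P35 and 662 at P14 in wild type, a difference of 2.37, and 1911 and 600 in the knockout, a difference of 1.63. Both P35 pools lay above the 4 younger ones, of which the P10 wild-type pool was the highest at 958. Cpe, a prohormone carboxypeptidase, Ntsr2, a neurotensin receptor, and Clu, the chaperone clusterin, were at 1.70, 1.55 and 1.17. Gja1, the gap junction protein connexin 43, was at 0.73, the water channel Aqp4 at 0.56 and glutamine synthetase, Glul, at 0.02. Gpc5, Cbs and Aldoc were lower, at −1.33, −1.29 and −1.02. Aldoc, the brain aldolase, had 2598 and 5560 signal units in wild type and 3516 and 3161 in the knockout, where the difference was 0.01.

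Vascular genes were lower in the P35 than in the P14 wild-type pool. Endothelial genes had a median of −0.56 over 31 of 32 measured genes, with 23 below 0, 0 higher and 3 lower by at least 2-fold. These were Aplnr, the apelin receptor of growing vessels, at −1.46, Slc7a5, a transporter of large amino acids, at −1.26, and Sox17, an arterial transcription factor, at −1.12. Cldn5, the tight junction protein of the blood-brain barrier, had 797 signal units at P35 and 1744 at P14, a difference of −0.98 with −2.24 in the knockout. Flt1 and Pecam1, further endothelial markers, were at 0.36 and 0.27. The knockout median of the list was 0.20. Relative to the P14 wild-type array, the list median was −0.342 at P10 in wild type. In the knockout it was 0.122, −0.335 and −0.307 at P10, P14 and P35. Only the P10 knockout array thus lay above the P14 wild-type array.

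Mural and smooth muscle genes had a median of −0.56 over 15 genes, with 4 lower by at least 2-fold and 0 higher. Actg2, a smooth muscle actin, was at −2.09, Tpm2, a tropomyosin, at −1.48, Myh11, the smooth muscle myosin, at −1.13 and Mustn1 at −1.09. The mural markers Pdgfrb and Acta2 summed to 333 at P35 and 590 at P14 in wild type, and 488 and 360 in the knockout. All 4 genes past the limit are muscle genes. The skeletal muscle list was lower in the same pool, with 13 of 15 genes below 0 and 6 past 2-fold. In the knockout Actg2 was at 0.03, while the skeletal muscle median was 1.83. A relation between the 2 lists was not tested. Gja4, the connexin 37 of arterial endothelium, had 91.7 and 342 signal units, a difference of −2.12 with 0.09 in the knockout.

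Genes of collagens and the matrix were mostly lower at P35. Of 48 genes detected on both arrays 10 were lower and 4 higher by at least 2-fold, with a median of −0.35 and −0.66 in the knockout. Eln, elastin, had 815 signal units at P35 and 3304 at P14, a difference of −1.89 with −1.66 in the knockout, and at P10 its signal was 4266. Col4a1 and Col4a2, the main collagens of basement membranes, were at −1.34 and −1.35, and Col8a1, a collagen of vessel walls, at −1.77. The laminin Lama5 and the proteoglycan perlecan, Hspg2, were at −1.39 and −1.22, while Lama2, Lamc1 and Nid1, which encode other components of basement membranes, were at 0.22, −0.64 and −0.06. Tnc, tenascin C, was at −1.66 and Col1a1, of fibrillar collagen, at −1.14. The panel of 4 fibroblast markers, Col1a1, Col1a2, Col3a1 and Dcn, was not lower in sum. It had 8159 signal units at P35 and 7210 at P14 in wild type, and 7679 and 5226 in the knockout. The members higher by at least 2-fold were the small leucine-rich proteoglycans Ogn, with 407 signal units at P35 and 184 at P14, and Fmod at 1.48, Col16a1 at 1.35 and P4ha1, which hydroxylates collagen, at 1.23. Col16a1 was at −1.01 in the knockout. Meningeal and fibroblast genes had a median of 0.25, with Thbd at 1.07 and Igfbp2 at 1.03 past the limit.

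Cell cycle genes had a median below 0, with few members past the limit. Of 56 measured genes 42 were detected on both arrays, 5 at P14 only, 9 on neither and 0 at P35 only. The median over the 42 was −0.46, with 33 below 0, 3 lower by at least 2-fold and 2 higher. The shares past 2-fold, 3 and 2 of 42, lie near those of all named genes, and the summed signal of the 56 genes was 13348 at P35 and 12409 at P14. Cdc20, an activator of the anaphase-promoting complex, had 57.7 signal units at P35 and 123 at P14, a difference of −1.41, with 213 at P10. Kif22, a kinesin of the spindle, was at −1.34 and Cenpa, the histone variant of centromeres, at −1.30. Cdk1, the mitotic kinase, was detected at P14 only, with 48.2 at P35 and 91.0 at P14, and was at least 2.03-fold lower at P35. The 2 higher genes were Stmn1, a regulator of microtubules that nondividing cells also use, at 1.15 with 2.03 in the knockout, and Mcm6, a replication licensing factor, at 1.21 with a second probe at 0.44. Mcm6 had 275 and 152 signal units in wild type, and 45.8, not detected, and 104 in the knockout. Relative to the P14 wild-type array the list median was 0.49 at P10 and −0.46 at P35 in wild type, and 0.96, 0.18 and −0.61 at P10, P14 and P35 in the knockout, so that it was lower at each later age in both genotypes.

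Replication-dependent histone genes, which are expressed in the synthesis phase of the cycle, had a median of −0.51 over 14 genes, with 6 lower by at least 2-fold and 0 higher. The 6 were H2ac22, H2ac13, H2ac10, H2ac12, H2ac23 and H2ac20, at −1.89 to −1.01. H2ac22 had 300 signal units at P35 and 1186 at P14 in wild type, with 2714 at P10. These histone H2A genes are near-identical copies, so that their probes may measure the same transcripts and do not count as 6 separate observations.

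To show sequence for genes of the cell cycle list that were lower at P35, the promoters of 3 of them are given. Cenpa, also lower by at least 2-fold, is not shown. The stretches run from 100 bases before the gene start to the base before it, as RefSeq gives them on GRCm38.p6. Capitals mark a cell cycle homology region (TTTGAA) and a CCAAT box (CCAAT), elements that are known from promoters of mitotic genes, on either strand. All 3 lie on the minus strand and are written 5′ to 3′ along the gene, Cdc20 at chr4:118437344-118437443, Kif22 at chr7:127042421-127042520 and Cdk1 at chr10:69352913-69353012.
Cdc20: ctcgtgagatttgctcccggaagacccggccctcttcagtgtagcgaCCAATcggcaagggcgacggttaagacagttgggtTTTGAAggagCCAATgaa
Kif22: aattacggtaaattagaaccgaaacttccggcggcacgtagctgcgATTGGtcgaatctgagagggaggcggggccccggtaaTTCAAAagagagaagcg
Cdk1: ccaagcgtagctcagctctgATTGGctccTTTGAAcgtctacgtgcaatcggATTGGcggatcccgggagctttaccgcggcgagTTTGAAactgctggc
Over the whole windows of RefSeq promoters, TTTGAA or its complement was in 17 of 50 windows of the measured cell cycle genes (34.0%) and in 5878 of all 32851 windows (17.9%). CCAAT was in 26 of the 50 (52.0%) and in 37.4% of all. It was as frequent in the late mature oligodendrocyte list, whose median was above 0, with 16 of 31 windows (51.6%). In the newly formed oligodendrocyte list it was in 5 of 22 (22.7%). The motifs do not overlap each other in the windows shown, and a match is a description of the sequence.

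For the late oligodendrocyte genes the core of the MYRF motif was searched, written as CTGGCAC or CTGGTAC on either strand, MYRF being the transcription factor that maintains myelin genes. It was in 2 of 31 windows of this list (6.5%) and in 7.1% of all windows. Hapln2, with the second highest difference of the list, holds 1 of them, shown here in capitals on GRCm38.p6 at chr3:88027592-88027691, minus strand, upstream of the gene start.
Hapln2: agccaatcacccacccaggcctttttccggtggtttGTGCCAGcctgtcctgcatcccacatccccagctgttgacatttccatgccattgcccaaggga

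Other named genes at the top of the ranking belonged to several classes. Serpina1d and Serpina1b, copies of alpha-1 antitrypsin, an inhibitor of neutrophil elastase, were at 3.41 and 3.12 in wild type and 2.29 and 2.48 in the knockout. Serpina1a, a further copy, was detected at P35 only and was at least 5.71-fold higher, with 190 signal units at P35 and 51.9 at P14. These copies are near-identical and their probes cannot be taken as separate genes. Fgf1, a fibroblast growth factor without a signal peptide, had 1017 at P35 and 216 at P14, a difference of 2.57 with 3.33 in the knockout. Its second probe stood at 1.28. Its receptor gene Fgfr2 was at 1.30, while its other probes gave −0.58 and 0.20. Igf1, the insulin-like growth factor, was at 2.06 with 1.63 in the knockout. Tmem47, a protein of cell junctions, was at 2.85 and Rida, which hydrolyses reactive imines, at 2.58. Insm1, a neuroendocrine transcription factor, was at 2.83, with 250 signal units at P35 and 66.0 at P14, and 56.7 and 48.9 in the knockout. Gna12, a G protein subunit, was at 2.23 and Sez6l2, a neuronal membrane protein, at 2.24. Mgl2, a lectin of macrophages, and Rassf4, a protein of the Ras association family, were at 2.25 and 2.16, with 0.24 and 0.47 in the knockout. Their second probes gave 0.71 and 0.78 in wild type. Mgl2 had 193 signal units at P35, 69.7 at P14 and 185 at P10 in wild type.

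Among the 20 genes with the highest differences, 17 were detected on both knockout arrays and 16 of these were also higher there, 14 by at least 1 log2 unit. The gene that was not was Fbxw5, a subunit of ubiquitin ligases, at 2.55 in wild type and −0.33 in the knockout. It had 416 signal units at P35, 106 at P14 and 732 at P10 in wild type. Among the 20 lowest, 16 were detected on both knockout arrays, 11 were lower there and 9 of them by at least 1 log2 unit. Those that were not lower are Atp2a1, H2-D1, Gja4, Actg2 and Cartpt.

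**Figure D5:**
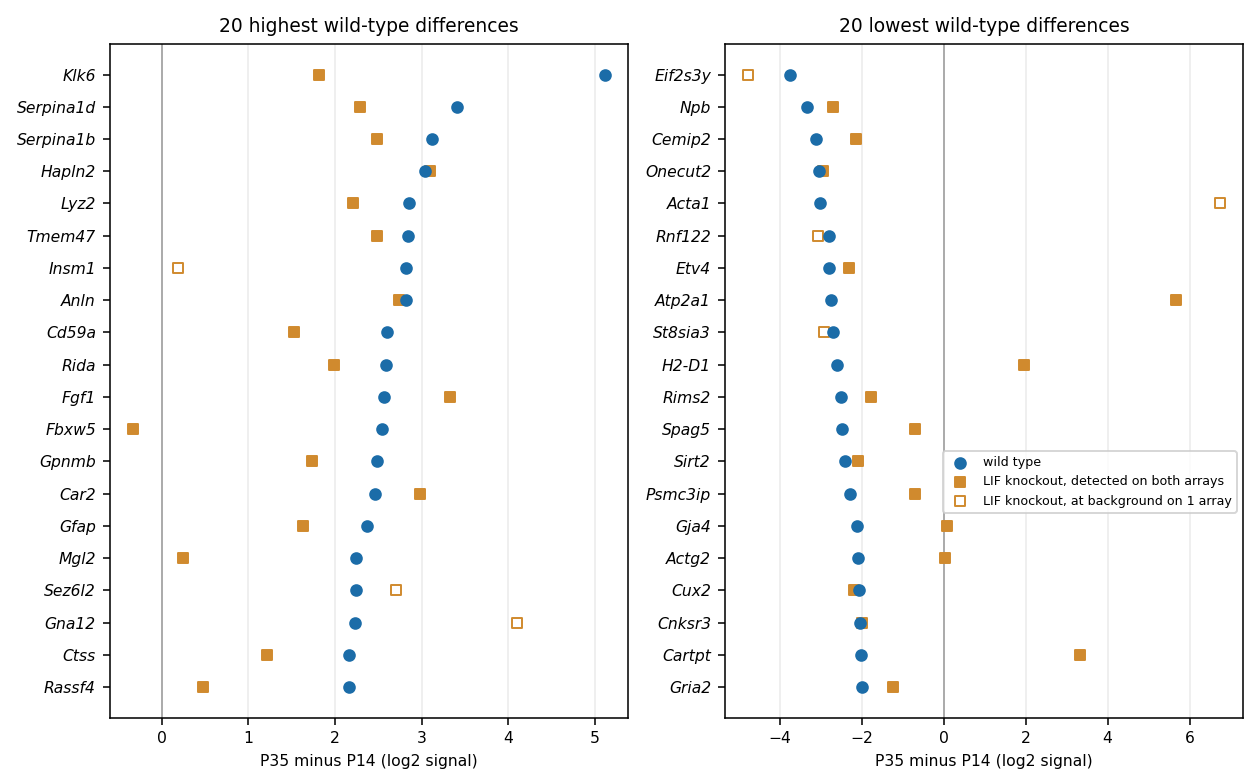
P35 minus P14 log2 difference of the 20 named genes with the highest (left) and lowest (right) wild-type differences among those detected on both wild-type arrays. Circles show wild type and squares the LIF knockout, open where the gene was at background on 1 knockout array, and the horizontal scales differ. Klk6 is at 5.11 in wild type, and Acta1 is at −3.01 in wild type and 6.73 in the knockout.

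Several of the lowest genes are neuronal or regulatory. Npb, the neuropeptide B precursor, had 87.2 signal units at P35 and 690 at P14, a difference of −3.32 with −2.70 in the knockout. Etv4, a transcription factor induced by growth factor signalling, had 74.7 and 396, a difference of −2.78 with −2.32 in the knockout. Onecut2, a homeodomain factor, was at −3.05 and −2.94, and Cux2, another, at −2.07 and −2.19. Rims2, a scaffold of vesicle release, had 192 and 1088, with −2.51 and −1.77. Gria2, the AMPA receptor subunit that limits calcium entry, had 262 and 1096, 3.99-fold lower at P35 after normalization in wild type, with a knockout difference of −1.23. For these 6 genes both P35 pools were below all 4 younger pools. Rnf122, a ubiquitin ligase, and St8sia3, a sialyltransferase, were at −2.79 and −2.70 in wild type, and both were at background on the P35 knockout array. Spag5, a protein of the mitotic spindle, and Psmc3ip, of meiotic recombination, were at −2.49 and −2.29, with −0.70 and −0.69 in the knockout.

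Genes of the axonal and neuronal list showed no common direction, with 5 higher and 5 lower by at least 2-fold among 38 and a median of −0.05. Kif5a, a motor of axonal transport, was at 1.03, Sncg, the gamma-synuclein of ganglion cells, at 1.16 and Slc17a6, a vesicular glutamate transporter, at 1.11. Dcx, the microtubule protein of immature neurons, was at −1.25, with −1.13 in the knockout. Nefh, the heavy neurofilament chain, had 90.5 and 215 signal units in wild type and 117 and 83.5 in the knockout, with −1.38 and 0.49.

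Growth, morphogen and guidance genes showed no common direction. Of 53 such genes 28 lay below 0, as did 3240 of the 6127 named genes, and 5 were lower and 3 higher by at least 2-fold, with a median of −0.11. Fgf1 and Fgfr2, described above, were among the higher genes. Notch1 and its target Hey1 were at −1.11 and −1.29, with −1.16 and −1.35 in the knockout. Sema6a, a guidance molecule, was at −1.60, Gdf10, a growth factor of the TGF-beta family, at −1.68 and Ptn, pleiotrophin, at −1.02 with 5078 signal units at P35 and 10747 at P14. Of 38 developmental transcription factors 25 lay below 0, 5 were lower and 2 higher by at least 2-fold, and the median was −0.11. Sp7 and Klf13 were at −1.19 and −1.31, and Id1, an inhibitor of differentiation factors, at −1.06. Nkx6-2, described above, was among the higher factors, of which the highest was at 1.09.

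Immediate early and stress genes had a median of 0.46 over 27 genes, with 7 higher and 2 lower by at least 2-fold. Hspb1, a small heat shock protein, had 1267 signal units at P35 and 409 at P14, a difference of 1.88 with 0.80 in the knockout. Hspa5 and Ddit3, of the response to unfolded protein in the endoplasmic reticulum, were at 1.34 and 1.40, and 0.66 and 0.20 in the knockout. Fos, an immediate early gene, was at 1.01 and −0.17. The knockout median was 0.12. Respiratory chain genes had a median of −0.19 over 61 genes with 5 lower and 0 higher by at least 2-fold, and ribosomal protein genes had none past the limit among 40.

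Genes of neighbouring tissue were among the extreme values. In the P35 and P14 wild-type pools Acta1, the skeletal muscle actin, had 61.0 and 339 signal units, a difference of −3.01, and in the knockout 2419 and, at background, 42.5. Atp2a1, the calcium pump of fast muscle, had 82.9 and 442 in wild type, a difference of −2.74, and 2434 and 68.2 in the knockout. Cga, the common chain of pituitary hormones, was detected at P14 only and was at least 19.9-fold lower at P35, and the granule protein Chga at least 7.38-fold lower. Gh and Prl, which encode other pituitary hormones, were detected at P35 only and were at least 6.04-fold and 1.93-fold higher. Avp and Oxt, hormones of the hypothalamus, were at 2.09 and 1.55, with 3.50 and 2.91 in the knockout. The pools therefore differed in muscle and in pituitary transcripts, and the part of this in other differences was not tested.

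A few genes were at or near background in some pools and well above it in others. Sspn, sarcospan of the dystrophin complex, was detected at P14 only, with 44.9 signal units at P35, 1233 at P14 and 37.4 at P10, and was at least 39.6-fold lower at P35. In the knockout it had 1244 at P35 and 855 at P14. Prdx2, a peroxide-reducing enzyme, had 43.9, 531 and 70.9 at these ages in wild type and was at least 16.7-fold lower at P35, while a second probe gave −2.68. Psmc1, a proteasome ATPase, had 49.6, 230 and 59.8 at these ages in wild type and was at least 6.54-fold lower at P35, with 244, 256 and 83.2 in the knockout. Without background correction the bounds of Sspn, Prdx2 and Psmc1 were 21.1, 9.19 and 3.90-fold. For these genes the P35 wild-type pool stood apart from the P35 knockout pool of the same slide. The P14 wild-type pool also stood apart from the P35 and P10 wild-type pools, which were both low.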

How the data were processed

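Total RNA of each pool was isolated with TRIzol and converted to biotinylated cRNA (TotalPrep kit), per the labels' protocols. The deposited intensity values are mean bead signals of 1-colour MouseRef-8 1.1 chips, exported without normalization from BeadStudio 1.5.0.34, per the file headers. The deposited detection scores, a fraction from 0 to 1 per the file headers, were read as 1 minus the detection p-value, so that 0.05 is the limit for a detected probe. The authors' deposited table of the series holds scaled intensities for the same arrays and leaves 15646 of 24613 probes blank. Of the 24611 rows per array 5 controls were left out.

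Gene names came from a platform table by way of values: a table probe was linked to the 1 row that matched it on the arrays within 0.05 signal units. The match used all 6 arrays for 8406 probes, the P35 arrays alone for 529 and the younger arrays alone for 3. Linking named 8047 of 8934 linked probes (6656 genes) and left 887 without a name. A gene number in the row identifier was equal to that of the linked gene for 97.1% of 3182 rows that carry one.

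Intensities were corrected by normexp with an offset of 16 in limma 3.58.1 (R 4.3.3), quantile normalized over the 6 arrays and taken to log2. Of several probes of a gene, the one with the highest mean log2 signal over the arrays stands for it. Where it was detected on 1 wild-type array only, the fold is a lower bound against the lowest detected signal of the other array. On the P14 array 1 detected probe, at 54.0 signal units, was dimmer than undetected probes of up to 62.2, and it was left out of this minimum, a choice made after the data were seen. Named are the 20 genes with the highest and the lowest differences, the 10 highest bounds each way, and list members past 1 log2 unit, with a few defining genes chosen after their values were seen. The members of 33 lists, and the comparison itself, were chosen with earlier results of these data known. Groups were taken from the labels, nothing was fitted or tested, and the number of arrays limits the precision. The alternatives tried were other scaling, background, detection and probe rules and the authors' table. The script was checked on simulated data.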

Additional observations from a re-analysis of the deposited data

Results flagged for a closer look

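For the results below the single wild-type pair and the single knockout pair of arrays lay on opposite sides of 0, and the difference between the genotypes was not tested. The median P35 minus P14 difference of microglia and macrophage genes was 0.954 in wild type and −0.116 in the knockout. Endothelial genes had −0.556 and 0.202, and red blood cell genes 0.522 and −0.411. Retina and lens genes had 0.517 and −0.632 over 6 genes, and thyroid, steroid and clock response genes −0.183 and 0.641, though the wild-type median of that list was 0.006 without a detection filter. Skeletal muscle genes had −0.652 in wild type and 1.827 in the knockout. Relative to the P14 wild-type array, the muscle list stood at 0.775 on the P10 and −0.652 on the P35 array of wild type, and at 0.646, −0.714 and 1.382 on the P10, P14 and P35 arrays of the knockout, so that the P35 knockout array was the highest of the 6.

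Single genes with the same contrast were Acta1, at −3.01 in wild type and 6.731 in the knockout, Atp2a1 at −2.743 and 5.669, H2-D1 at −2.591 and 1.96, and Cartpt, a neuropeptide precursor, at −2.011 and 3.315. Acta1 and Atp2a1 belong to the skeletal muscle list. The part of the muscle, red cell and pituitary markers in the other differences was not tested.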

How the results depend on the processing

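No paired analysis was possible because each group had 1 array, and for the same reason no array could be left out. Probes past 1 log2 unit numbered 361 higher and 812 lower without normalization between arrays, 344 and 320 without background correction, 312 and 294 with an offset of 50, and 222 and 299 in the authors' table, which holds fewer probes. They numbered 578 and 525 with quantiles over the 2 wild-type arrays alone, 608 and 494 with median centring, 448 and 458 with a detection limit of 0.01, and 737 and 604 without a detection filter. The median of skeletal muscle genes was −0.424 without background correction, −0.393 with an offset of 50 and −0.286 without the filter. The pituitary median turned to −0.175 at the limit of 0.01 and that of retina and lens genes to −0.171 without the filter, over other sets of genes. The bounds depend on the background correction, in alternatives chosen after the data were seen. Over the 10 named on each side they were 3.31 to 6.04-fold on the P35 side, 2.24 to 3.69 without background correction and 2.10 to 3.40 with an offset of 50, and 4.55 to 39.6, 2.87 to 21.1 and 2.64 to 18.8 on the P14 side. With the dim P14 probe kept in the minimum, bounds on the P35 side were 3.51 to 7.30, and 56 in place of 37 of 228 reached 2-fold. All 40 named genes detected on both arrays kept their sign and stayed past 1 log2 unit in each alternative computed for them. Late mature oligodendrocyte genes kept medians of 0.52 to 0.71, newly formed ones −1.16 to −0.86 and microglia genes 0.79 to 0.97. Signals near background limit the cell cycle, retina and muscle lists.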

Other observations

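Genes of the thyroid, steroid and clock response list went both ways in wild type, with 4 higher and 4 lower by at least 2-fold among 28. Clock, a core factor of the circadian oscillator, had 802 signal units at P35 and 350 at P14, a difference of 1.44, while its second probe stood at −0.16. Per1, a repressor of the same oscillator, had 78.7 and 181, with −1.38 in wild type and 0.77 in the knockout. Pdk4, a kinase that restrains glucose oxidation, and Plin4, a lipid droplet protein, were at 1.22 and 1.13, with 3.45 and 2.32 in the knockout. Hr, a corepressor that thyroid hormone induces in brain, was at −1.54 and −1.84.

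Among 36 ion channel and transporter genes 1 was higher and 4 lower by at least 2-fold. Atp1b3, a subunit of the sodium pump, had 6781 signal units at P35 and 3213 at P14, a difference of 1.19 with 1.33 in the knockout. Clic4, an intracellular chloride channel protein, and Kcnk2, a potassium leak channel, were just inside the limit at 0.96 and 0.95, with 1.28 and 1.23 in the knockout. Slc9a3r2, a scaffold of membrane transporters, and Slc12a4, a potassium chloride cotransporter, were at −1.27 and −1.24. Glycolysis genes held 1 higher and 2 lower members among 22. Slc2a3, the neuronal glucose transporter, was at 1.09, and Gys1, glycogen synthase, was detected at P14 only and was at least 3.25-fold lower at P35.

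Of the bounds on the P35 side, Rab37, a GTPase of secretory granules, was at least 5.86-fold higher, with 194 signal units at P35 and 54.8 at P14, and Spock1, a proteoglycan of the testican family, at least 5.34-fold, with 178 and 49.9. With an offset of 50 these bounds were 3.32 and 3.07. Both knockout pools gave like values, 190 and 52.6 for Rab37 and 210 and 39.5 for Spock1. On the P14 side, Sema4f, a semaphorin, was at least 5.31-fold lower at P35, with 48.7 and 192, and the knockout pools had 67.1 and 188. The remaining bounds on the P35 side were Serpinb1a, a protease inhibitor, at least 5.21-fold, Kat2b, a histone acetyltransferase, at least 5.09-fold, Il31ra, a cytokine receptor chain, at least 3.77-fold, Phkg1, of phosphorylase kinase, at least 3.53-fold, and Was, an actin regulator of blood cells, at least 3.66-fold. Those on the P14 side were Ces1d, a carboxylesterase, at least 6.62-fold, Bfsp2, a lens filament protein, at least 4.98-fold, Riok1, an atypical kinase, with 43.2 signal units at P35 and 171 at P14, and Prnd, the prion-like doppel, at least 4.55-fold. Was was not higher in the P35 knockout pool, with 77.2 signal units at P35 and 92.8 at P14. Riok1 and Ces1d were not lower in that pool. Riok1 had 161 at P35 and 126 at P14 in the knockout, and Ces1d had 58.1 and, at background, 42.1.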
